A study of Mus musculus with 15 samples.

Results

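The genes of epithelial and mesenchymal state were examined in Renca renal tumors with and without *Pbrm1*. They were 10 genes taken by symbol from the 18279 genes of the table: the epithelial genes *Cdh1*, *Epcam*, *Krt8*, *Krt18* and *Krt19*, the mesenchymal genes *Vim* and *Cdh2*, and the transcription factors *Zeb1*, *Zeb2* and *Snai2*. Each of the 10 had a row and was tested, each averaged 10 counts or more, and the rule used no measured value, although the genes were proposed with earlier results of these data known. Renca is a mouse renal carcinoma cell line that arose in a BALB/c mouse, and *Pbrm1* encodes a subunit of the SWI/SNF chromatin remodeling complex. Bulk RNA sequencing covered 15 subcutaneous tumors in 3 groups of 5. Cells had been injected in Matrigel into the backs of female BALB/c mice that were 4 to 6 weeks old, and tumor collection followed limits of tumor burden and animal welfare. Tumors 1 to 5 came from control cells, which the sample labels call parental and the series description calls control knockout. Tumors 6 to 10 came from *Pbrm1* knockout clone 4 and tumors 11 to 15 from *Pbrm1* knockout clone 18, both made with transient Cas9 plasmids and sorted as single cells. Mice of the study were left untreated or received a PD-1 antibody, and the labels do not say which applied to these tumors. Each group is 1 cell line, so the knockout and other differences between lines cannot be told apart, and the p-values measure the spread between tumors of these lines. The paper reports slower growth of untreated *Pbrm1* knockout tumors than of control tumors. The age of each tumor at collection is not given and may differ between the groups, and its part was not tested.

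Epithelial cells hold to each other through E-cadherin, the product of *Cdh1*, and carry a cytoskeleton of keratin filaments. In the epithelial to mesenchymal transition, known as EMT, transcription factors of the Zeb and Snail families bind short E-box sequences at epithelial promoters and repress them, while vimentin and N-cadherin, the products of *Vim* and *Cdh2*, rise. Many renal carcinomas are known to express keratins and vimentin side by side.

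The labels were checked with *Pbrm1* itself. Its normalized count was 9704, 9871, 8959.7, 7452 and 9075 in control tumors 1 to 5, from 2484 to 3068 in clone 4 and from 2572 to 3138 in clone 18. All 10 knockout tumors lay below all 5 control tumors, by 1.69 on the log2 scale (SE 0.07, limma adjusted p = 2.94e-11). The libraries held 32924414 to 49099168 reads on genes. Summed markers of the renal tubule lineage, with *Pax8* at their head, reached 4353 to 5262 in control, 4057 to 5011 in clone 4 and 3843 to 4452 in clone 18. In all knockout tumors against control, 0 of the 5 markers passed by limma, edgeR or DESeq2, with 1 at an unadjusted p under 0.05. In clone 18 against control, 1 of the 5 passed as lower by limma, where 24.7% of all genes passed. The edgeR and DESeq2 fits each called 1. *Pax8*, the largest part of the sum, was at 2719 to 3281 in clone 18, below the 3363 to 4143 of control. The log2 difference was above 0 for 4 of the 5 markers in all knockout tumors (median 0.16). In clone 18 it was above 0 for 3 and below 0 for 2 (median 0.32). Summed keratinocyte markers of overlying skin were at 0 to 20 in any tumor, with *Krt5* at 0 in all clone 4 tumors and *Krt14* at 0 in all control tumors. By limma 1 of these 3 markers passed as lower in all knockout tumors, and by edgeR and DESeq2 0 did. Over all genes tested, 22.1% passed in all knockout tumors against control, 9.23% higher and 12.9% lower. Of the other cell type markers in that comparison, 1 of 6 for pericytes and smooth muscle rose and 2 of 4 for leukocytes fell. By limma 0 of 8 endothelial and 0 of 5 skeletal muscle markers passed, although edgeR and DESeq2 each called 1 and 4 of these. Among them 1 and 2 had an unadjusted p under 0.05, and clone 18 alone gave 1 limma call in each of these 2 lists. Summed skeletal muscle markers ran from 73.2 to 154.4 in control, 51.8 to 1045 in clone 4 and 84.9 to 1529 in clone 18. In bulk tissue, fewer cells of a type and less RNA per cell cannot be told apart.

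RNA of epithelial and of mesenchymal genes was abundant in the same tumors. Per kilobase of exon, the mean normalized count over the 15 tumors was 27679 for *Krt8*, 19228.5 for *Krt18*, 16602 for *Vim* and 1717 for *Cdh1*. Those of *Zeb1* and *Zeb2* were 248 and 228, that of *Epcam* 130.2, and *Krt19* reached 35.9, *Snai2* 13.1 and *Cdh2* 5.66. *Krt8* exceeded *Krt18* in 15 of 15 tumors, while *Krt18* exceeded *Vim* in 11 of 15 and *Zeb1* exceeded *Zeb2* in 11 of 15. Further down the order, *Epcam* exceeded *Krt19* in 13 of 15 tumors and *Krt19* exceeded *Snai2* in 10 of 15, so these neighbors were not separated in each tumor. *Vim* and *Cdh1* had no overlap over the tumors, nor did *Cdh1* and *Zeb1*. E-cadherin RNA was among the abundant members and N-cadherin RNA was the least abundant. The lengths are those of all exons in GENCODE M21, and the annotation used for counting is not given in the sources used here.

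**Figure D1:**
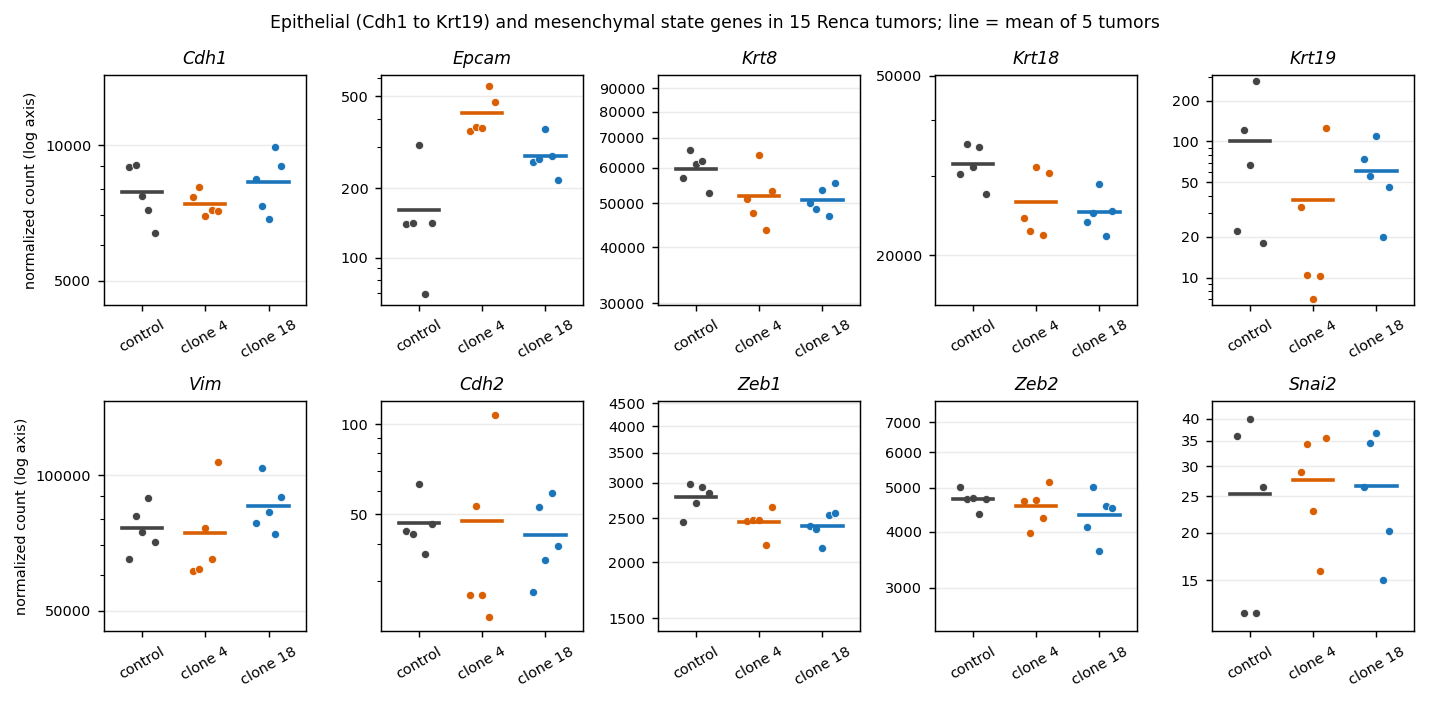
Normalized counts of the 10 genes in each of the 15 tumors, on log axes, with 1 point per tumor and a line at the mean of 5 tumors. *Epcam* lies at 69.5 to 306.9 in control and 352.9 to 555.2 in clone 4, while *Cdh1* and *Vim* overlap among the 3 groups.

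Between knockout and control tumors, 3 of the 10 genes passed the test. *Epcam* rose, and *Krt18* and *Zeb1* fell by a small amount. The other 7 genes, *Cdh1* and *Vim* among them, did not pass. Over all 18250 genes tested, 22.1% passed in the same comparison, 9.23% higher and 12.9% lower. The median log2 difference of the 10 genes was -0.14, beside -0.02 over all genes. All values are log2 differences of normalized count + 1, tested by limma with p-values adjusted by the Benjamini-Hochberg method over all genes.

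**Figure D2:**
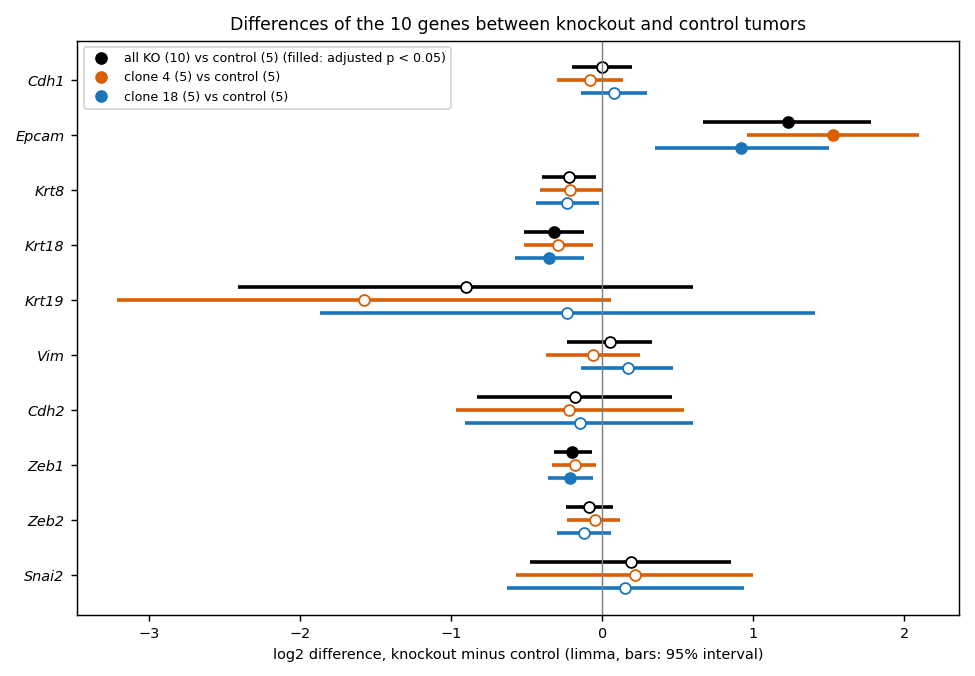
Log2 differences of the 10 genes from the 5 control tumors, for all 10 knockout tumors (black), clone 4 (orange) and clone 18 (blue), with 95% intervals. Filled points passed an adjusted p of 0.05. *Epcam* is filled in all 3 comparisons, which share the control tumors, and *Krt19* has the widest interval, from -2.41 to 0.60 in the pooled comparison.

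*Cdh1*, the E-cadherin gene, lies on chromosome 8 (106603351 to 106670246 in mm10). Its normalized counts were 8939, 9055, 7725.5, 7181 and 6394 in control, 7679, 8059, 6962, 7187 and 7125 in clone 4, and 8416, 7336, 6847, 9904 and 8991 in clone 18. The 3 groups overlapped, and clone 18 held both a tumor below the control median and the highest tumor of all. The difference was 0.00 (95% interval -0.20 to 0.20, limma adjusted p = 0.996). Each clone taken alone stayed within the spread as well, at -0.08 for clone 4 and 0.08 for clone 18.

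*Epcam*, which encodes the epithelial cell adhesion molecule of renal tubule and carcinoma cells, had the largest difference of the 10 genes between all knockout and control tumors. It lies on chromosome 17 (87635979 to 87651129). The normalized counts were 140.4, 140.9, 306.9, 69.5 and 141.7 in control tumors 1 to 5. They were 352.9, 366, 364.1, 555.2 and 472.3 in clone 4 and 258.2, 267, 360, 275.6 and 217.2 in clone 18. All 5 clone 4 tumors exceeded each control tumor, which 5.8% of all genes did in that comparison, whereas in clone 18 only tumor 13 exceeded control tumor 3. With n = 5 tumors per group, the mean ± SD was 159.9 ± 87.8 in control, 422.1 ± 88.8 in clone 4 and 275.6 ± 52.2 in clone 18. Knockout tumors were 2.34-fold above control (95% interval 1.59 to 3.43, log2 1.23, SE 0.26, limma adjusted p = 0.00286; exact two-sided permutation p = 0.00167 over 3003 splits). The difference was 1.53 for clone 4 (limma adjusted p = 0.000826) and 0.92 for clone 18 (limma adjusted p = 0.0201). Without tumor 13 the clone 18 difference was 0.82 and its adjusted p 0.0535. Clone 18 stood 0.61 below clone 4 on the log2 scale (95% interval -1.18 to -0.03), and this difference of clones did not pass (limma adjusted p = 0.242). Immune markers were lower in the same knockout tumors: 4 of 5 T cell markers passed as lower, where 12.9% of all genes did. The T cell markers summed to 75.7 to 619.7 in control, 26.9 to 121.4 in clone 4 and 28 to 67.3 in clone 18. Their part in the *Epcam* difference was not tested.

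Promoter sequence from RefSeq (GRCm38.p6, 250 bases before to 50 bases after the start) was at hand for 5 of the 10 genes, namely *Epcam*, *Krt8*, *Krt18*, *Vim* and *Zeb2*. It was searched on both strands for the E-box CAGGTG, which Zeb and Snail proteins are known to bind, and for GGGCGG, the core of a GC box. The *Epcam* window is shown because *Epcam* had the largest difference that passed among the members, with the E-boxes in capitals (CACCTG is CAGGTG on the other strand).
Epcam, chr17:87635729-87636028, plus strand: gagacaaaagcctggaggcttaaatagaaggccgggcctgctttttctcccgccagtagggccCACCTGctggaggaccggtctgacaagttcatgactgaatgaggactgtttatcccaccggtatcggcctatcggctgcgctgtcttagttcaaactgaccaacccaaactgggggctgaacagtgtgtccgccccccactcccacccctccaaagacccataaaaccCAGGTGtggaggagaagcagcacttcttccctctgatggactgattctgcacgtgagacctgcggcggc
The *Epcam* window held 2 E-boxes, at positions -187 and -19 from the start, and 1 GGGCGG. Of the 32817 promoters of the table, 20.2% held CAGGTG and 35.6% held GGGCGG. The *Vim* window and the 4 windows of *Zeb2* held no CAGGTG. A match describes the letters only, and binding was not measured here.

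*Krt8* and *Krt18* encode the partner keratins that form the filaments of simple epithelia, and they lie near each other on chromosome 15 (101996698 to 102004482 and 102028180 to 102032027). *Krt8* was at 57043, 65692.5, 61046, 61999.8 and 52651 in control, at 51178.5, 47719.7, 63977, 43750.3 and 53347.5 in clone 4, and at 50035, 48529, 53657, 46790.1 and 55506 in clone 18. *Krt18* was at 30221, 35347, 31349, 34745 and 27363.5 in control, at 24194, 22676, 31414, 22196 and 30511 in clone 4, and at 23687, 24847, 28719, 22075 and 25128 in clone 18. The keratins of this pair were low in the same tumors, with 6 of 10 knockout tumors under all control tumors for *Krt8* and 7 of 10 for *Krt18*, and tumor 8 was the highest knockout tumor of both.

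*Krt18* fell by 0.32 (SE 0.09, limma adjusted p = 0.0197; exact two-sided permutation p = 0.00932), to 80.3% of the control mean. Without control tumor 2 or control tumor 4 its adjusted p was 0.0634 or 0.0594. *Krt8* had a log2 difference of -0.22 (95% interval -0.40 to -0.04) and did not pass (limma adjusted p = 0.0756), although the exact two-sided permutation p of this single gene was 0.019. It did pass with DESeq2 on whole reads (adjusted p = 0.0485), after quantile normalization (0.0202) and without tumor 8 (0.0264). By clone, the *Krt18* difference was -0.29 for clone 4 (adjusted p = 0.0777) and -0.35 for clone 18 (adjusted p = 0.0245), with -0.06 between the clones (95% interval -0.29 to 0.17). The clone 18 call was lost without tumors 11, 14, 2 or 4 and after quantile normalization, with adjusted p from 0.0525 to 0.0616. In clone 4 *Krt18* passed without tumor 8 (0.0353) or tumor 10 (0.0367). *Krt8-ps*, a pseudogene with its own row, had 378.4 counts on average in control, so few reads beside *Krt8* were assigned to it.

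The promoters of the pair are shown beside those of *Krt7* and *Krt20*, the other keratins with the largest differences below. Capitals again mark CAGGTG or CACCTG.
Krt8, chr15:102004293-102004592, minus strand: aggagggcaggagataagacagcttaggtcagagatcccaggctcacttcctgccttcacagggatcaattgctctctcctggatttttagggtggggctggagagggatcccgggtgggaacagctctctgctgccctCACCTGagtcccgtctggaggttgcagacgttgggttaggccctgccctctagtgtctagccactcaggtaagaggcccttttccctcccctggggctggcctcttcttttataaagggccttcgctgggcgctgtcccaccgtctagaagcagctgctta
Krt18, chr15:102027966-102028265, plus strand: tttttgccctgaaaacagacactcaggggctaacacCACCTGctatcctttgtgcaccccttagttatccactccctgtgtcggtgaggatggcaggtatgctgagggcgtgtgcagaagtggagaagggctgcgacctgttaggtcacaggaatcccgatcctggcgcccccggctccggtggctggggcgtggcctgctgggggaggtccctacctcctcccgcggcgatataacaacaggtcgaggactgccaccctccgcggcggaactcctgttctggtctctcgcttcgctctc
Krt7, chr15:101412153-101412452, plus strand: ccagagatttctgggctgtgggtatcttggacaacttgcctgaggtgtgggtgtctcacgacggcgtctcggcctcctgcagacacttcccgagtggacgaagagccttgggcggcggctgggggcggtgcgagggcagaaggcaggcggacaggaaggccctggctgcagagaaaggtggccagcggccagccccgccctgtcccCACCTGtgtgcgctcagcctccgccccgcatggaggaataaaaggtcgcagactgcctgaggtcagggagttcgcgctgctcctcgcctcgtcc
Krt20, chr11:99438104-99438403, minus strand: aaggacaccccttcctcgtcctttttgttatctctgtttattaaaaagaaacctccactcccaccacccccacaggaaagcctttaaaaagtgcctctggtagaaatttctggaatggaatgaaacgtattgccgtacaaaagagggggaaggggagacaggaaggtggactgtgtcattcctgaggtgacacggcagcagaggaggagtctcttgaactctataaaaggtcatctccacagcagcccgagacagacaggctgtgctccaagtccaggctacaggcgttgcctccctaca
*Krt8* held 1 E-box at -111, *Krt18* 1 at -214 and *Krt7* 1 at -44, while *Krt20*, which fell the most, held none. The *Krt7* window held 4 GGGCGG and the other 3 held 0.

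*Krt19*, a keratin without a fixed partner that marks ducts and progenitor cells, varied the most of the 10 genes. Its normalized counts were 22, 122.4, 67.7, 277.9 and 18 in control, 32.8, 10.5, 7, 10.2 and 124.8 in clone 4, and 74.5, 55.4, 110, 20 and 45.9 in clone 18. The highest tumor was 39.7-fold above the lowest, and tumors of each group spanned from 18, 7 and 20 up to 277.9, 124.8 and 110 in control, clone 4 and clone 18. The difference of -0.90 (95% interval -2.41 to 0.60) did not pass (limma adjusted p = 0.41). In clone 4 it passed only without tumor 10 (-2.22, limma adjusted p = 0.0361).

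Differences of other keratins were larger than those of *Krt8* and *Krt18*. Of 10 other simple and stratified keratins listed, 6 were in the table, 5 fell in knockout against control and 0 rose, and the median log2 difference was -2.25. In each of the 5 that fell, all 10 knockout tumors lay below all control tumors, which 4.87% of all genes did. The same 5 passed in each clone. *Krt20*, a keratin of urothelium and gut, went from 145.1, 367.3, 132.6, 274.5 and 130.1 in control to 2.9, 1.9, 1, 6.8 and 21.2 in clone 4 and 16.3, 0, 13.1, 8 and 7.8 in clone 18. Every knockout tumor held at most 21.2 counts, and the control mean was 26.6-fold the knockout mean (log2 -4.97, SE 0.62, limma adjusted p = 2.28e-05). *Krt7*, a keratin of ducts and collecting tubules, went from 41.8, 81.9, 34.3, 106.4 and 39.1 in control to 9.6, 7.6, 1, 1.1 and 20.1 in clone 4 and 11.2, 2.5, 14.4, 6 and 20.2 in clone 18 (log2 -2.85, SE 0.56, limma adjusted p = 0.00147). Its groups did not overlap, and control tumors 2 and 4, with the most *Krt20*, also held the most *Krt7*.

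*Krt17*, a keratin of basal and stressed epithelium, was at 318 to 502 in control and 24.1 to 153.8 in the knockout tumors (log2 -2.49, limma adjusted p = 4.57e-05). *Krt80*, the most abundant of this list, was at 1376 to 2045 in control and 649 to 1284 in the knockout tumors (log2 -0.89, limma adjusted p = 0.000167). *Krt4*, a keratin of stratified mucosa, was low throughout, at 18.6 to 26.9 in control and 2 to 12.4 in the knockout tumors (log2 -2.01, limma adjusted p = 0.0019). *Krt20*, *Krt7*, *Krt17* and *Krt4* fell 4.02-fold to 31.3-fold in the fit, while *Krt8* and *Krt18*, the most abundant keratins, stayed at 86.2% and 80.3% of the control mean. *Krt23*, the member of the list that did not pass, had at most 19.6 counts. Summed keratinocyte markers were at 4.2 to 14 in control, 0 to 7.8 in clone 4 and 0 to 20 in clone 18. Limma called 1 of these 3 markers lower in all knockout tumors. The *Krt17* and *Krt80* counts were above those of *Krt5*, *Krt14* and *Trp63*, and the part of skin cells in them was not tested. *Krt7* has an overlapping gene on the other strand. Keratin genes share sequence, and how the counting treated reads that match several of them is not given in the sources used here.

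**Figure D3:**
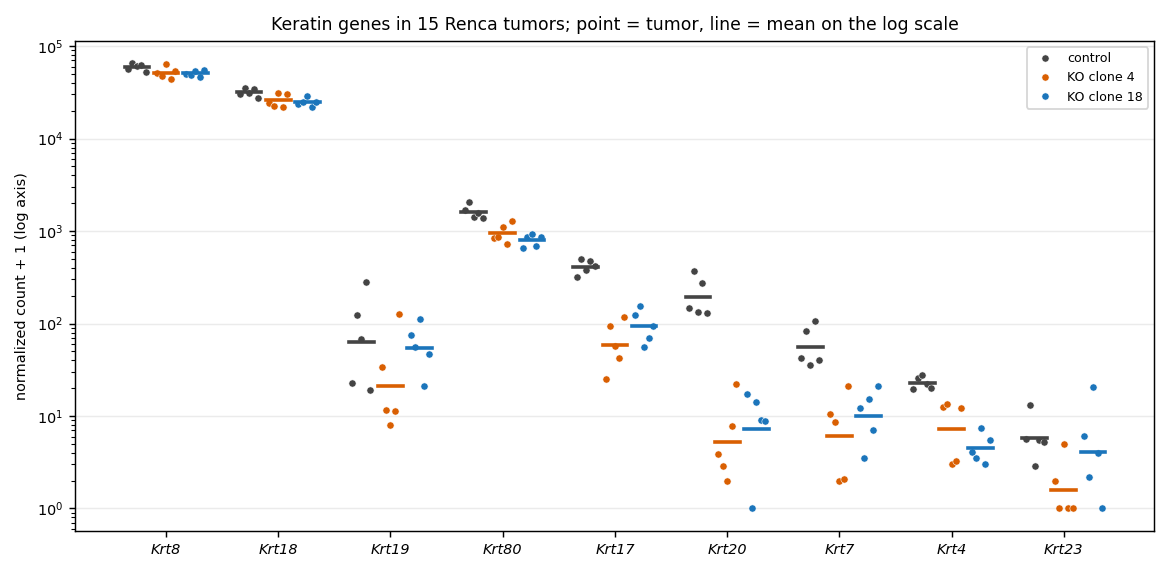
Normalized count + 1 of 9 keratin genes in the 15 tumors, on a log axis, with 1 point per tumor and a line at the mean on the log scale. *Krt8* and *Krt18* lie at 22075 or more in every tumor, while *Krt20* drops from 130.1 to 367.3 in control to 0 to 21.2 in the knockout clones.

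*Vim* encodes vimentin, the intermediate filament protein of mesenchymal cells and of many renal carcinomas. Its normalized counts were 65145.5, 81218, 74739.7, 88852 and 70953 in control, 61394.5, 61784, 76512, 65128 and 107172 in clone 4, and 78156, 103806, 82665, 74156.5 and 89444 in clone 18. The groups overlapped, and 3 knockout tumors lay above and 3 below all control tumors. The difference was 0.05 (95% interval -0.23 to 0.33, limma adjusted p = 0.825), and after quantile normalization it was -0.06, so its direction depended on the scaling. *Cdh2*, the N-cadherin gene, had 44.1, 43.2, 63.1, 37 and 46.5 counts in control, 27, 53.5, 26.9, 22.8 and 106.9 in clone 4, and 27.6, 52.9, 35.3, 59.1 and 39.2 in clone 18. Tumor 10 alone lay above the control range, and 5 knockout tumors lay below it. Its difference of -0.18 (95% interval -0.83 to 0.46) did not pass (limma adjusted p = 0.726).

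Tumor 10 of clone 4 had the highest *Vim*, *Cdh2* and *Zeb2* of the 15 tumors and also the highest sum of fibroblast markers. That sum of 9 genes, led by collagens, ranged from 53729.5 to 89813 in control, from 20100.2 to 194478 in clone 4 and from 67701 to 132988 in clone 18. Tumor 6 had the lowest fibroblast sum and the lowest *Vim*, and tumor 12, next to the top in fibroblast markers, was next to the top in *Vim*. Tumor 7 went the other way, with a fibroblast sum of 104794 and *Vim* at 61784. Between knockout and control 0 of the 9 fibroblast markers passed by limma, edgeR or DESeq2, and 0 had an unadjusted p under 0.05. Their part in the *Vim* values was not tested.

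**Figure D4:**
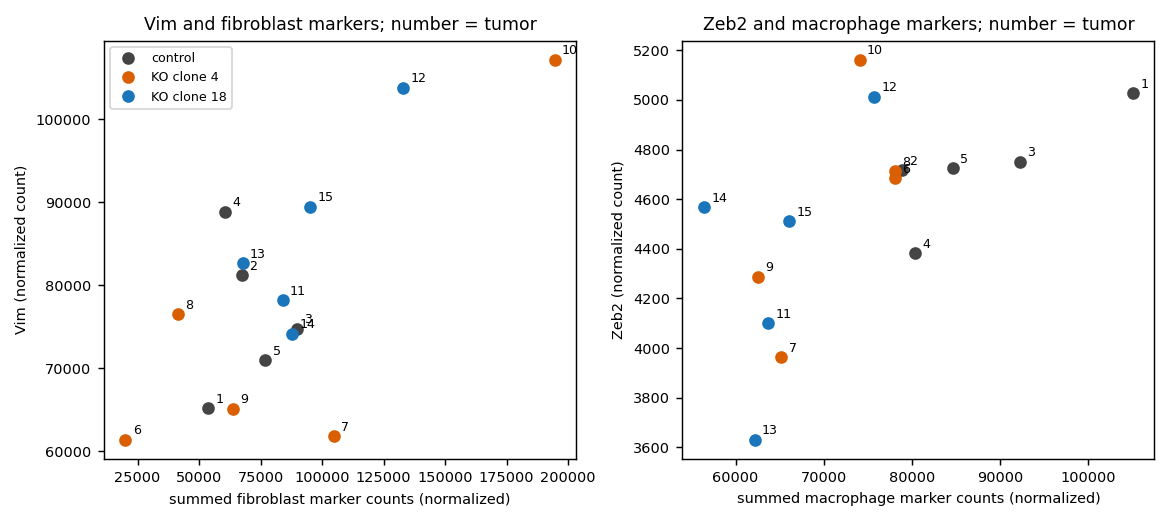
*Vim* against the sum of 9 fibroblast markers (left) and *Zeb2* against the sum of 7 macrophage markers (right), as normalized counts, with 1 numbered point per tumor. Tumor 10 is at the top of both plots, with *Vim* at 107172 and *Zeb2* at 5162, and the control tumors lie to the right of all knockout tumors on the macrophage axis.

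*Zeb1* encodes a zinc finger repressor of *Cdh1* and other epithelial genes. Its normalized counts were 2460.3, 2979, 2702, 2941 and 2852 in control, 2472.5, 2478, 2477, 2180 and 2656 in clone 4, and 2410.4, 2372, 2147, 2539 and 2566 in clone 18. Control tumor 1 lay inside the knockout range, the other 4 control tumors lay above all 10 knockout tumors, and 4 of 10 knockout tumors lay below all control tumors. The gene fell by 0.20 (SE 0.06, limma adjusted p = 0.0251; exact two-sided permutation p = 0.00433), to 87.2% of the control mean. Without control tumors 2, 4 or 5 the adjusted p was 0.0768, 0.0713 or 0.0608. Clone 18 differed from control by -0.21 (limma adjusted p = 0.0355) and clone 4 by -0.18 (limma adjusted p = 0.0825). The clone 18 call was lost under 4 of 8 other settings and without tumors 2, 3, 4, 5, 11, 12 or 13, with adjusted p from 0.0507 to 0.0872, and without tumor 1 clone 4 passed (0.0359).

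*Zeb2*, a close relative of *Zeb1* that macrophages and other myeloid cells also express, was at 5027, 4716, 4752, 4381 and 4725 in control, 4685, 3963, 4712, 4287 and 5162 in clone 4, and 4099, 5013, 3631, 4567 and 4512 in clone 18. Control tumors lay within the knockout range. Its difference of -0.09 (95% interval -0.24 to 0.07) did not pass (limma adjusted p = 0.437). Of 7 macrophage markers, 5 passed as lower in knockout tumors, where 12.9% of all genes did. The sum of the 7 was 78938 to 105117 in control, 62506.7 to 78107 in clone 4 and 56402 to 75758 in clone 18, with no overlap with control. *Cd68* of that list went the other way in clone 18, by 0.38 (limma adjusted p = 0.018), with 4 of 5 tumors above all control tumors. The part of these markers in the *Zeb1* and *Zeb2* values was not tested. *Zeb2* overlaps *Zeb2os* on the other strand, and the strand setting of the counting is not given in the sources used here.

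*Snai2*, which encodes the repressor Slug, was at 36, 12.3, 39.9, 12.3 and 26.4 counts in control, 28.9, 34.4, 22.9, 15.9 and 35.6 in clone 4, and 26.5, 34.5, 36.7, 15 and 20.2 in clone 18. All knockout tumors lay within the control range. The difference of 0.19 (95% interval -0.48 to 0.85) did not pass (limma adjusted p = 0.734), and it turned to -0.02 without control tumor 2 or 4.

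By clone, 1 of the 10 genes passed in clone 4, where 16.8% of all genes did, and 3 of 10 in clone 18, where 24.7% did. Between the clones 0 of 10 passed by limma, by edgeR or by DESeq2, 1 of 10 had an unadjusted p under 0.05, and 4.62% of all genes passed. The count against control was unevenly stable. Leaving out single tumors gave 1 to 4 genes for all knockout tumors, and the lowest counts came without control tumor 2 and without control tumor 4.

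The genes around these 10 were described by lists of their pathway. The counts below stand beside 22.1% of all genes that passed in knockout against control, 9.23% higher and 12.9% lower. Of 27 genes of epithelial junctions and polarity in the table, 5 rose and 6 fell in knockout tumors (median -0.10). *Tjp3*, a scaffold of tight junctions, went from 170.2 to 319.9 in control to 101.5 to 166.1 in clone 4 and 44.1 to 82.7 in clone 18 (log2 -1.56, limma adjusted p = 0.00167). *Marveld2*, the tricellulin gene, fell by 1.40 from a control mean of 54.4, and *Pkp3*, which encodes the desmosomal plakophilin 3, fell by 0.62. *F11r*, the gene of junctional adhesion molecule A, fell by 0.34 from a control mean of 9927. *Cldn3*, a tight junction claudin with the highest mean of the list over the 15 tumors, rose from 5990 to 7056 in control to 8494 to 10763.5 in the knockout tumors (log2 0.52, limma adjusted p = 3.68e-05), without overlap, which 3.11% of all genes showed in that direction. *Evpl*, which encodes envoplakin, rose by 0.53 (limma adjusted p = 0.00909). Genes of this list moved in both directions. Between the clones 6 of the 27 differed, beside 4.62% of all genes, with 1 higher and 5 lower in clone 18.

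Of 18 epithelial regulators and surface proteins, 0 rose and 5 fell, with a median of -0.40 over the 18, where 22.1% of all genes passed. *St14*, which encodes the membrane protease matriptase, went from 102.6 to 267.7 in control to 34.8 to 64.6 in clone 4 and 22.5 to 41.1 in clone 18 (log2 -2.22, limma adjusted p = 2.28e-05). The highest knockout tumor lay under the lowest control tumor, as in 4.87% of all genes. *Muc1*, a membrane mucin of epithelial surfaces, fell by 1.05. The epithelial transcription factor genes *Elf3* and *Grhl1* fell by 0.71 and 0.47. *Cd24a* and *Spint2*, the surface protein and the protease inhibitor with the highest levels of the list, did not pass, at 0.07 and 0.21. The *St14* locus has an overlapping gene on the other strand.

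Of 12 other EMT transcription factors, 1 rose and 0 fell (median 0.08). That gene was *Twist2*, with control tumors at 934.2 to 1173 and knockout tumors at 1107 to 1572 (log2 0.33, limma adjusted p = 0.0161). Without control tumor 1 or 2 its adjusted p was 0.0552 or 0.0521. *Tcf3* and *Tcf4*, whose products bind E-boxes in many cell types, did not pass, at 0.13 and -0.03.

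Of 20 mesenchymal effectors, 1 rose and 4 fell (median -0.10), where 22.1% of all genes passed. *S100a4*, a calcium-binding protein gene of motile cells, went from 318.3 to 644.7 in control to 104.2 to 343.3 in the knockout tumors (log2 -1.37, limma adjusted p = 0.000371). *Mmp2*, a gelatinase gene, fell by 0.85 with an adjusted p of 0.0409. That call was lost without any of 9 single tumors, with adjusted p up to 0.14 without control tumor 2, and with limma without trend (0.0719). By clone *Mmp2* passed in clone 4 (limma adjusted p = 0.0104) and not in clone 18 (limma adjusted p = 0.225), and its difference between the clones of 0.67 did not pass (limma adjusted p = 0.235). *Tgfbi* fell by 0.44, and its call was lost without control tumors 1 (0.0583) or 3 (0.0554). *Lgals1*, which encodes galectin 1, rose from 56126 to 66048 in control to 68259 to 105909.8 in the knockout tumors (log2 0.40, limma adjusted p = 0.00504). Its groups did not overlap, which 3.11% of all genes showed in that direction. *Sparc*, a matrix protein gene of fibroblasts, was at -0.05 and did not pass.

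None of 7 other cadherins, 4 cadherin-binding catenins or 6 other intermediate filament genes passed in all knockout tumors against control, by limma, edgeR or DESeq2, and 0, 0 and 1 of them had an unadjusted p under 0.05. Their medians were 0.02, -0.06 and 0.10. *Cdh16*, the kidney cadherin, had a mean ± SD of 24537 ± 1426 over the 5 control tumors and 22548 ± 2431 over the 10 knockout tumors, and *Ctnnb1*, the β-catenin gene, had 36421.6 ± 2060 and 33367 ± 2857. *Lmna*, the gene of nuclear lamins A and C, differed by -0.08. Clone 18 alone gave 1 call among the cadherins and 1 among the intermediate filament genes, where 24.7% of all genes passed. *Cdh19*, a cadherin of nerve sheath cells, was at 38.3, 0.9, 0, 2.2 and 0 in control and 9.8 to 65.3 in clone 18 (log2 3.55, limma adjusted p = 0.00526), and control tumor 1 lay inside the clone 18 range. Its call was lost with edgeR (adjusted p = 0.0652) and DESeq2 (adjusted p = 0.189). *Nes*, the nestin gene, was 0.27 above control in clone 18 (limma adjusted p = 0.0217), a call lost without tumor 12 (0.0583) or control tumor 4 (0.0604).

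**Figure D5:**
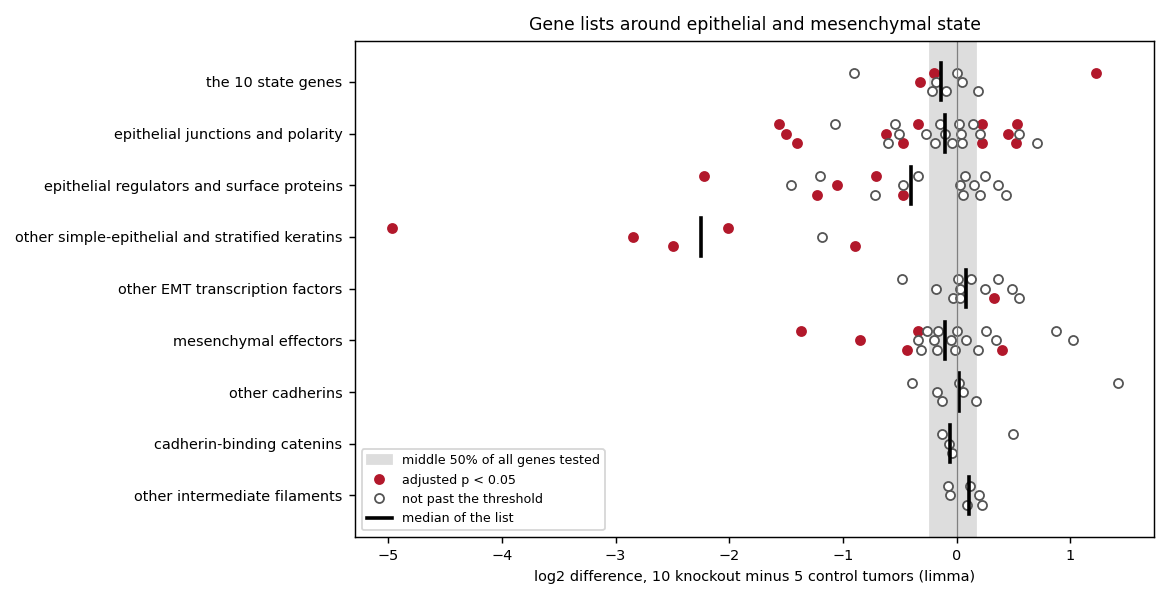
Log2 differences between the 10 knockout and 5 control tumors for the 10 state genes and 8 lists around them, with 1 point per gene, a black line at each list's median and a grey band from -0.23 to 0.17 that holds the middle of all genes tested. The other keratins have 5 red points, past an adjusted p of 0.05, all to the left, while junction genes have 5 to the right and 6 to the left.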

How the data were processed

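RNA from 15 Renca tumors was sequenced in bulk, and the study's table of 18279 genes was used. Each deposited value is a normalized signal. The authors had aligned the reads with TopHat2 to mm10, summed them over genes with HTSeq and scaled each tumor with a DESeq size factor. Tool versions, gene annotation and strand setting are not given in the sources used here. Divided by the smallest step found in its tumor, 100% of the values up to 8000 came out within 0.06 of a whole read, so reads were recovered. Depth was 32924414 to 49099168 reads per tumor, and counting error limits genes with few reads. As a check only for a library deposited more than once, the counts of the 30 pairs of tumors of a group were compared, and their chi-square was 17.7 to 164.2 times its degrees of freedom, as separate tumors would give.

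Of the genes, 29 were at 0 in every tumor and 18250 were tested as log2(normalized count + 1), a scale that understates changes of low genes, with limma 3.58.1 with trend in R 4.3.3. A fit of 2 groups set the 10 knockout tumors against the 5 controls. A fit of 3 groups compared the clones with control and with each other. P-values were adjusted over all genes by the Benjamini-Hochberg method, with 0.05 as the threshold. Exact two-sided permutation tests of single members ran over all 3003 splits of the tumors, and their smallest possible p is 0.000333. Alternatives were pseudocounts of 0.1 and 5, a filter at a mean of 10 counts, upper quartile and quantile scaling, limma with no trend, count tests on whole reads with DESeq2 1.42.0 and edgeR 4.0.16, and the omission of single tumors. In simulated counts of 18240 genes for knockout against control, of which 200 were changed, limma recovered 89.4% of 2-fold and 100% of 4-fold changes, and 5% of its calls were false, beside 5.85% with edgeR and 11.9% with DESeq2. The simulation gave every gene the same spread (negative binomial dispersion 0.05), changed only genes averaging at least 10 counts and held no difference between clones. These rates therefore do not carry over to genes with a larger spread, such as *Krt19*.

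The 10 genes and the lists around them were chosen with earlier results of these data known. Named from each list were up to 4 called genes with the largest difference and at least 10 counts on average, plus the 2 genes with the highest mean. *Krt23*, *Krt8-ps*, *Cdh19*, genes that differed between the clones and the marker genes were named in addition, after their values were seen. Gene positions and exon lengths are from GENCODE M21 and promoters from RefSeq GRCm38.p6.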

Additional observations from a re-analysis of the deposited data

Results flagged for a closer look

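In 12 of 171 groups of 5 tumors tested by Dixon's criterion, 1 tumor stood apart from the other 4, where chance gives about 8.55. Tumor 10 of clone 4 stood apart in 3 of them, with *Krt19* at 124.8 beside 7 to 32.8, *Muc1* at 362 beside 232.8 to 242.7, and *Krt20* at 21.2 beside 1 to 6.8 in the other clone 4 tumors. Tumor 6 of clone 4 was low for *F11r*, at 6538 beside 7932 to 8471, and for the smooth muscle gene *Des*, at 2809 beside 3598 to 3831. Tumor 13 of clone 18 was high for *Tcf3*, at 3589 beside 3083 to 3153, and tumor 12 for *Cgn*, at 328.5 beside 184.6 to 205.5. Control tumor 2 was high for *Mmp2*, at 8185 beside 3262 to 4450. *Cdh19* was at 38.3 in control tumor 1 beside 0 to 2.2, and at 3.8 in tumor 7 of clone 4 beside 0 to 1.1. Summed keratinocyte markers reached 20 in tumor 14 of clone 18 beside 0 to 4.1, and summed skeletal muscle markers 154.4 in control tumor 1 beside 73.2 to 96.2.

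Between the clones 4.62% of all genes passed by limma. Of the 162 genes tested from the lists, marker lists included, 10 passed in the same fit. Of these 10, 6 were genes of epithelial junctions. *Cldn2*, a claudin of leaky proximal tubules, was at 914.8 to 1639 in clone 4, 221.5 to 349 in clone 18 and 288.6 to 445.1 in control, a difference between clones of -2.11 (adjusted p = 4.46e-07). *Tjp3* was lower in clone 18 than in clone 4 by a log2 difference of -1.22 (adjusted p = 0.00319), with tumors at 44.1 to 82.7 and 101.5 to 166.1. *Cgn*, which encodes the tight junction protein cingulin, differed by -0.85 (adjusted p = 0.00354), *Cldn1* by -0.53 (adjusted p = 0.00659) and *Cldn4* by -0.39 (adjusted p = 0.0297). *Evpl* was 0.44 higher in clone 18 (adjusted p = 0.0472). *Cldn4* lost its call without tumors 8, 9, 10 or 11 and with limma without trend, with adjusted p from 0.0559 to 0.0665. *Cldn2*, *Cgn*, *Cldn1*, *Cldn4*, *Cdh19*, *Des* and *Cd68* were named after their values were seen.

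*Cdh19* was at 65.3, 9.8, 31.4, 37.1 and 58.2 in clone 18 and at 0, 3.8, 0, 1.1 and 1.1 in clone 4, with 0 to 4 reads per tumor there, and differed by 4.25 (adjusted p = 0.00621). Other settings gave 2.72 to 5.91, since the fold rests on the pseudocount or prior at such counts. *Nes*, which encodes the intermediate filament protein nestin, was 0.30 higher in clone 18 than in clone 4 (adjusted p = 0.0406). It differed from control by 0.27 in clone 18 (adjusted p = 0.0217) and by -0.03 in clone 4 (adjusted p = 0.844). The clone differences of *Evpl* and *Nes* lost their calls without 11 and 9 of the 15 single tumors and with limma without trend, with adjusted p up to 0.112 and 0.0981. Of the cell type markers, *Des* was 0.45 higher in clone 18 (adjusted p = 0.0143) and *Cd68* 0.52 higher (adjusted p = 0.00998).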

How the results depend on the processing

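No paired analysis was possible because the labels carry no number shared by tumors of separate groups. *Epcam* passed in knockout against control under all 8 other settings (log2 1.13 to 1.27) and without each tumor (0.97 to 1.50), and the 5 keratins stayed at 5 calls in each of these fits. *Krt8* passed with DESeq2 (-0.21) and after quantile normalization (-0.27), where *Vim* turned to -0.06. Other reversals were all of differences that had not passed: *Cdh2* in clone 4 with DESeq2 (0.01) and edgeR (0.02), *Cdh2* between clones with DESeq2 (-0.13), edgeR (-0.12) and quantile normalization (-0.07), and *Krt8* between clones with upper quartile scaling (0.00). Genes called between clones numbered 1359 with DESeq2 beside 844. The cause was not tested.

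Leaving out single tumors gave 1 to 4 of the 10 genes for all knockout tumors, 1 to 3 for clone 4 and 1 to 3 for clone 18, 0 to 2 of the EMT transcription factors and 3 to 6 mesenchymal effectors. The log2 ranges against control were -0.07 to 0.06 for *Cdh1*, -0.26 to -0.18 for *Krt8*, -0.37 to -0.28 for *Krt18*, -0.00 to 0.11 for *Vim*, -0.24 to -0.17 for *Zeb1* and -0.02 to 0.38 for *Snai2*. In clone 4 *Vim* ran from -0.20 to -0.00. In clone 18 *Krt19* ran from -0.67 to 0.30 and *Snai2* from -0.05 to 0.35. Between clones the ranges were -0.08 to 0.06 for *Krt8*, -0.12 to 0.01 for *Krt18*, -0.13 to 0.41 for *Cdh2*, -0.07 to 0.01 for *Zeb1* and -0.24 to 0.11 for *Snai2*. With 5 tumors a group, the pooled calls of *Krt18* and *Zeb1* depend on single control tumors, their clone 18 calls also on single clone 18 tumors, and the absence of a *Krt8* call on tumor 8, while *Krt19*, *Cdh2* and *Snai2* rest on few reads.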
